A study of Homo sapiens with 18 samples.

Results

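The genes described here are 6 genes of cytosolic and nuclear DNA sensing: CGAS, IFI16, STING1, TBK1, TREX1 and SAMHD1. They were chosen by name for their known roles, with earlier results of these data known. All 6 have a row among the 16472 genes of the deposited table and are among the 13280 genes tested. RNA sequencing of poly(A) RNA was done in the established human cell line NIKS, immortalized keratinocytes grown on irradiated J2/3T3 mouse fibroblasts. The 18 libraries form 6 groups of 3 biological replicates: SP100 wild type (WT) and SP100 knockout (KO) cells, each untreated (0 h) or given human interferon alpha 2a at 25 ng/mL for 12 or 48 h. Every group shares the parental line, the medium and the feeder layer. The column codes of the table show 1 cell line per genotype, so the loss of SP100 cannot be told apart from whatever else sets the lines apart. No untreated library at 12 or 48 h was analysed here, so the effect of interferon cannot be told apart from that of longer culture.

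Cells treat double-stranded DNA outside its usual place as a sign of infection or damage. The enzyme cGAS binds such DNA and makes the cyclic dinucleotide cGAMP, which activates the adaptor STING on the endoplasmic reticulum. STING then recruits the kinase TBK1, which phosphorylates the transcription factor IRF3 and switches on interferon genes. IFI16 is a PYHIN-family protein that binds DNA in the nucleus and the cytosol. TREX1 is an exonuclease that removes DNA from the cytosol, and SAMHD1 is a hydrolase that breaks down deoxynucleotides (dNTPs), the substrates that viral polymerases need; both are known to hold the pathway in check. In keratinocytes these proteins are studied as defences against papillomaviruses and herpesviruses. SP100 is a component of PML nuclear bodies and is itself an interferon-stimulated gene.

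Type I interferon acts through the factor ISGF3, which binds a DNA element with repeated GAAA, and the sequences before the start sites of the members that rose most are shown for that reason. RefSeq's promoter table, build GRCh38.p14, held 4 of the 6 members at 5 start sites: IFI16 with 2 starts, TREX1, SAMHD1 and TBK1. CGAS and STING1 had no entry. The 250 bases before each start of the 3 members with the largest changes are given 5′ to 3′ on the gene's strand. Capitals mark each match to AANNGAAA, a core recognised by interferon regulatory factors, on either strand.
IFI16, start 1, chr1:159008741-159008990, plus strand: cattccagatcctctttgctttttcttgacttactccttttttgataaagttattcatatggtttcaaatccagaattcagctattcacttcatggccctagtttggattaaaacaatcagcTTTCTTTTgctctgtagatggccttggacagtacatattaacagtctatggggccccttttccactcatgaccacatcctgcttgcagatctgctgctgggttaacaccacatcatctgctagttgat
IFI16, start 2, chr1:159009657-159009906, plus strand: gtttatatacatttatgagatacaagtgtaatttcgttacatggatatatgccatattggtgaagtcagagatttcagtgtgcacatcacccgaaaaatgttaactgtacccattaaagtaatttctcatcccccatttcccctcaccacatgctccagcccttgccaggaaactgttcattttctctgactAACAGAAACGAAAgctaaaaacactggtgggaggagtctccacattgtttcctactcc
TREX1, chr3:48465580-48465829, plus strand: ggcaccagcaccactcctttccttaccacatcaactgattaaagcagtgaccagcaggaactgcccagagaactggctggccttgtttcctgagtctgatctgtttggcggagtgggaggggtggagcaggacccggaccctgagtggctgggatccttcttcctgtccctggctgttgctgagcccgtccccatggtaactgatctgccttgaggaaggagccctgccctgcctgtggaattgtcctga
SAMHD1, chr20:36951709-36951958, minus strand: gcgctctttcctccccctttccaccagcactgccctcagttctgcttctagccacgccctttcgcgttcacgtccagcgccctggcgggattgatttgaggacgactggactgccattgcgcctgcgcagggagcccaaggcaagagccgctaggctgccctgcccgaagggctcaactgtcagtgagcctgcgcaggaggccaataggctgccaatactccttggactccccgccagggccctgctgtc

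In these windows, taken with the 50 bases after the start, IFI16 was the member with a match. Its second start had AACAGAAA from 58 to 51 bases before the start and AAACGAAA from 53 to 46 bases before it, and these 2 overlap. Its first start had TTTCTTTT, a match on the opposite strand, from 128 to 121 bases before the start. TREX1, SAMHD1 and TBK1 had no match to AANNGAAA, and no member window held 2 copies of GAAA with 2 bases between them, a stricter form of the same element, or TTCNNNGAA, the gamma-activated site. Over the 35116 promoters of the table, searched in the same way on both strands, 22.8% held AANNGAAA, 3.57% held the stricter form and 7.66% held TTCNNNGAA. The GC content of the 250 bases was 40.4% at both IFI16 starts, 58.0% at TREX1, 64.0% at SAMHD1 and 66.8% at TBK1. A match is a description of letters, and an absent one says only that those letters are not in this window.

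Values are RPKM, reads divided by gene length and by library size, which allow levels of different genes to be set side by side. Total reads per library are unknown; relative depth, read from the smallest steps of low values in 235 genes, ranged from 0.855 to 1.243 of the mean, a 1.45-fold range. The Pearson correlation between replicates of a group was 0.9853 to 0.9894. SP100 RNA in the KO libraries was 15.1 RPKM at 0 h, 89.1 at 12 h and 59.8 at 48 h, against 30.0, 159.5 and 127.4 RPKM in WT, so it was lower but still present. All 10 keratinocyte markers were measured, with a summed level of 16180 to 18920 RPKM per library. Of 10 fibroblast markers 3 had a row (COL1A1, FAP and PDGFRB), summing to 5.84 to 8.93 RPKM. Of 10 immune cell markers 2 had a row (CD14 and ITGAM), summing to 4.28 to 6.78 RPKM in untreated and 1.49 to 3.84 RPKM in interferon-treated libraries. That sum was lower where IFI16, TREX1 and SAMHD1 were higher, and its part in the results was not tested. In bulk RNA, fewer cells that express a gene and less RNA per cell cannot be told apart.

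**Figure D1:**
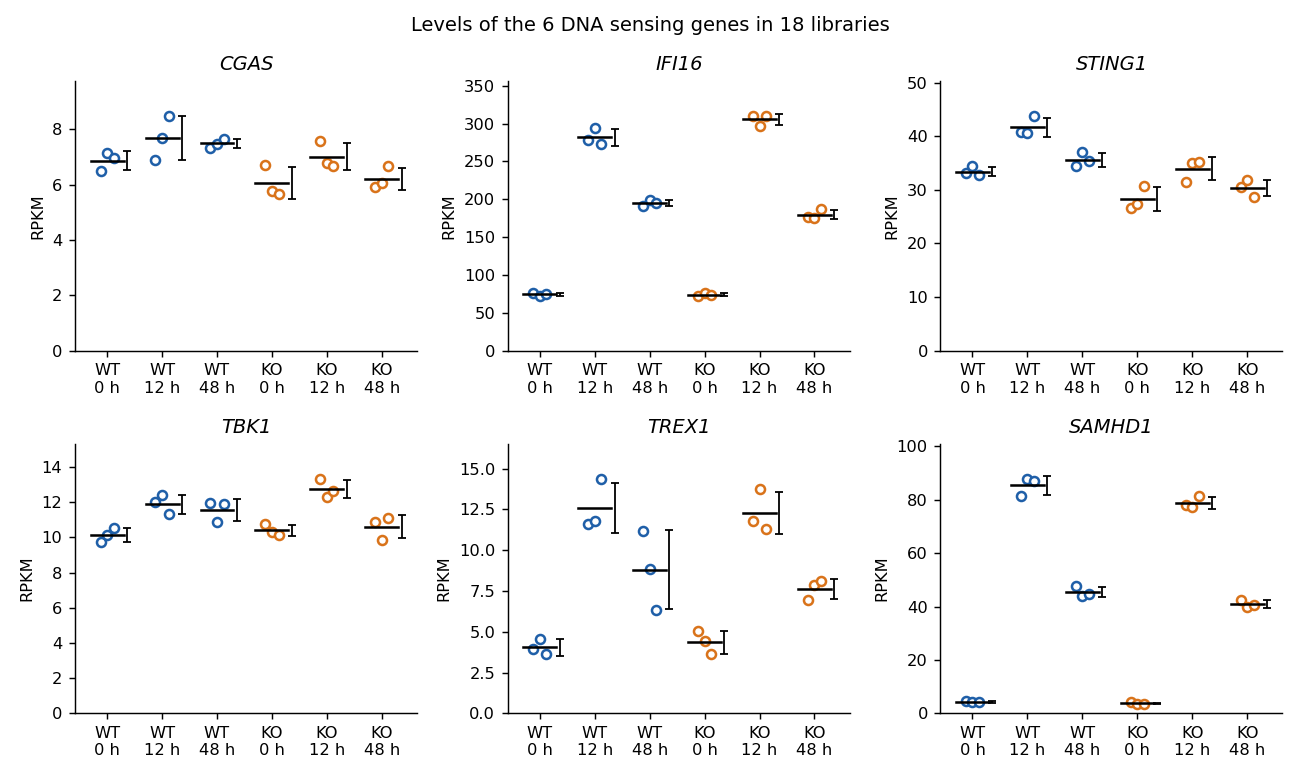
RPKM (y axis, linear from 0) of each of the 6 genes in the 6 groups (x axis), WT in blue and KO in orange. Circles are libraries, horizontal bars are means of 3 and whiskers are SDs; SAMHD1 goes from 3.44 to 4.52 RPKM in untreated to 77.4 to 87.8 RPKM in 12 h libraries, while CGAS stays between 5.65 and 8.48 RPKM throughout.

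In untreated WT cells IFI16 was the most abundant member at 74.3 ± 2.08 RPKM (SD, n = 3), followed by STING1 at 33.4 ± 0.842, TBK1 at 10.1 ± 0.401 and CGAS at 6.87 ± 0.333 RPKM. SAMHD1 (4.28 ± 0.209 RPKM) and TREX1 (4.04 ± 0.497 RPKM) were lowest, and their libraries overlapped. The upper 4 places did not overlap with their neighbours, and untreated KO cells had the same order in those places. After 12 h SAMHD1 was second, at 85.3 ± 3.52 RPKM in WT, above STING1 at 41.7 ± 1.77 RPKM, and CGAS was last at 7.69 ± 0.785 RPKM. SAMHD1 was still second and CGAS last at 48 h in both genotypes, though the WT libraries of CGAS and TREX1 then overlapped.

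At 12 h in interferon 5 of the 6 genes had risen in WT cells, and the same 5 in KO cells: IFI16, SAMHD1, TREX1, STING1 and TBK1. CGAS did not pass the test in either genotype. Among all genes tested, 44.9% changed at 12 h in WT (15.1% higher and 29.8% lower) and 48.8% in KO (16.0% higher and 32.8% lower). The test was limma's moderated test on log2(RPKM + 1) with Benjamini-Hochberg adjustment over 13280 genes, and a change was called at an adjusted p under 0.05. At 48 h, 3 genes (IFI16, TREX1 and SAMHD1) stood above untreated in WT and in KO, where 6.52% and 5.9% of all genes were higher. From 12 to 48 h, 4 members fell in WT and 5 in KO, against 11.3% and 14.0% of all genes. The median change of the 6 members at 12 h was 0.87 log2 units in WT and 0.79 in KO, and that of all genes was -0.085 and -0.095. Median-of-ratios scaling, which removes that shift, moved the share of higher among called genes at 12 h: in WT it was 33.6% as deposited and 51.6% scaled, and in KO 32.7% and 50.9%. Between 12 and 48 h the share was 68.5% and 46.9% in WT, and 66.4% and 47.4% in KO.

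IFI16, the abundant DNA-binding sensor, measured 75.6, 71.9 and 75.3 RPKM in the untreated WT libraries, 278, 294 and 273 RPKM at 12 h, and 191, 198 and 196 RPKM at 48 h. The KO libraries measured 72.4, 75.8 and 74.1 RPKM untreated, 310, 297 and 309 RPKM at 12 h, and 177, 176 and 187 RPKM at 48 h. Within each genotype the 3 times did not overlap: the 12 h libraries were highest and the untreated ones lowest. The ratio of means at 12 h was 3.79 in WT and 4.12 in KO, and at 48 h it was 2.63 and 2.43. On the log2 scale IFI16 rose by 1.91 (SE 0.0362, limma adjusted p 2.21e-16) in WT and by 2.03 (adjusted p 8.10e-17) in KO at 12 h. Between 12 and 48 h it fell by 0.53 in WT (adjusted p 3.50e-08) and by 0.76 in KO (adjusted p 4.30e-10). Of the RPKM gained by 12 h, 58.2% was left at 48 h in WT and 45.7% in KO. In RefSeq, IFI16 overlaps its PYHIN relative AIM2, and reads of the 2 genes cannot be told apart with certainty. AIM2 was at most 1.42 RPKM in any library, where IFI16 was at least 71.9 RPKM.

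CGAS, the enzyme that makes cGAMP, measured 6.50, 7.14 and 6.98 RPKM in untreated WT, 6.91, 7.69 and 8.48 RPKM at 12 h and 7.34, 7.48 and 7.67 RPKM at 48 h. In KO it measured 6.72, 5.79 and 5.65 RPKM untreated, 7.57, 6.80 and 6.67 RPKM at 12 h and 5.91, 6.07 and 6.67 RPKM at 48 h. The untreated and 12 h libraries overlapped in both genotypes. The log2 difference at 12 h was 0.14 (95% interval -0.03 to 0.31, limma adjusted p 0.163) in WT and 0.19 (0.02 to 0.35, adjusted p 0.0621) in KO. These 2 values depend on the scaling: after median-of-ratios scaling they were 0.22 (adjusted p 0.0286) and 0.28 (adjusted p 0.00778), both past the threshold. Leaving out the first untreated KO library also brought the KO value past it (0.25, adjusted p 0.0222). At 48 h the difference from untreated was 0.11 in WT (adjusted p 0.405) and 0.03 in KO (adjusted p 0.828). From 12 to 48 h CGAS in KO differed by -0.15 (adjusted p 0.139), which was -0.23 and past the threshold after that scaling (adjusted p 0.0264).

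STING1, the adaptor that cGAMP activates, showed a small rise at 12 h and was nearer its untreated level at 48 h. It measured 33.1, 34.4 and 32.8 RPKM in untreated WT, 40.7, 40.6 and 43.7 RPKM at 12 h and 34.4, 37.0 and 35.4 RPKM at 48 h. In KO the values were 26.6, 27.3 and 30.8 RPKM untreated, 31.5, 35.0 and 35.3 RPKM at 12 h and 30.6, 31.8 and 28.7 RPKM at 48 h. All 12 h libraries lay above the untreated ones of their genotype. The 12 h mean was 124.8% of the untreated one in WT (0.31 log2 units, SE 0.0595, limma adjusted p 0.000544) and 120.3% in KO (0.26, adjusted p 0.00201). At 48 h the difference from untreated was not called in WT (0.09, adjusted p 0.368) or KO (0.10, adjusted p 0.287), though the lowest 48 h WT library (34.37 RPKM) was just above the highest untreated one (34.36 RPKM). Of the 12 h gain in RPKM, 26.7% was left at 48 h in WT and 37.6% in KO. The fall from 12 to 48 h was 0.22 log2 units in WT (adjusted p 0.00859). In KO it was 0.15 with libraries that overlapped (adjusted p 0.0477), and that call was lost when the second or the third 12 h library, or the first or the third 48 h library, was left out (adjusted p 0.142, 0.158, 0.0802 and 0.179). It was also lost with no filter on low values (0.0553), without a variance trend (0.0607) and in a fit on the 6 libraries alone (0.0914), all as adjusted p.

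TBK1, the kinase that STING recruits, measured 9.71, 10.2 and 10.5 RPKM in untreated WT, 12.0, 12.4 and 11.3 RPKM at 12 h and 11.9, 10.9 and 11.9 RPKM at 48 h. In KO it measured 10.8, 10.3 and 10.2 RPKM untreated, 13.3, 12.3 and 12.7 RPKM at 12 h and 10.9, 9.85 and 11.1 RPKM at 48 h. In both genotypes the 12 h libraries were all above the untreated ones. TBK1 rose by 0.21 log2 units in WT (SE 0.0586, limma adjusted p 0.00792) and by 0.27 in KO (adjusted p 0.00128). In KO it had fallen by 0.25 at 48 h (adjusted p 0.00334), to 0.03 above untreated. In WT the difference from 12 to 48 h was -0.04 (adjusted p 0.66), and the difference from untreated was 0.18 (adjusted p 0.062), which passed the threshold only without the second 48 h library (0.22, adjusted p 0.0433).

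TREX1, the exonuclease that clears cytosolic DNA, went from 3.92, 4.59 and 3.62 RPKM in untreated WT to 11.6, 11.8 and 14.4 RPKM at 12 h and 11.2, 8.82 and 6.36 RPKM at 48 h. In KO the untreated values were 5.04, 4.42 and 3.61 RPKM, those at 12 h 11.8, 13.8 and 11.3 RPKM, and those at 48 h 6.93, 7.89 and 8.09 RPKM. The WT libraries at 48 h were the most scattered of any TREX1 group (SD 2.42 RPKM). TREX1 rose 3.12-fold in WT (1.43 log2 units, SE 0.152, limma adjusted p 1.91e-06) and 2.82-fold in KO (1.31, adjusted p 3.83e-06) at 12 h. At 48 h it was still 2.18-fold (0.93 log2 units, adjusted p 0.000519) and 1.75-fold (0.70, adjusted p 0.00572) above untreated. The fall from 12 to 48 h was 0.62 in KO (adjusted p 0.00402) and 0.50 in WT (adjusted p 0.0177). The WT call was lost without the third 12 h library (0.0803) or the third 48 h library (0.105), and in a fit on the 6 libraries alone (0.0615), all as adjusted p. RefSeq places TREX1 inside ATRIP, a DNA damage checkpoint gene, and reads of the 2 genes may be split between them. ATRIP lay between 8.49 and 13.1 RPKM in all libraries and was not called in any comparison.

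SAMHD1, the dNTP hydrolase, had the largest change of the 6 genes. It measured 4.52, 4.18 and 4.14 RPKM in untreated WT, 81.3, 87.8 and 86.9 RPKM at 12 h and 47.6, 43.9 and 44.7 RPKM at 48 h. In KO it measured 4.11, 3.44 and 3.68 RPKM untreated, 77.9, 77.4 and 81.5 RPKM at 12 h and 42.5, 39.7 and 40.6 RPKM at 48 h. The 3 times were far apart in both genotypes. At 12 h the ratio of means was 19.9 in WT (4.03 log2 units, SE 0.055, limma adjusted p 2.92e-18) and 21.1 in KO (4.08, adjusted p 2.27e-18). Counted from the most positive log2 change in WT at 12 h, SAMHD1 was 34th, IFI16 106th and TREX1 149th of the 13280 genes. STING1 was 1366th, TBK1 2128th and CGAS 2930th in that order. At 48 h SAMHD1 was 10.6-fold above untreated in WT and 10.9-fold in KO, and 50.7% and 49.4% of the gain at 12 h was left. In RefSeq, SAMHD1 overlaps TLDC2, which was at 0.07 to 1.11 RPKM in these libraries.

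**Figure D2:**
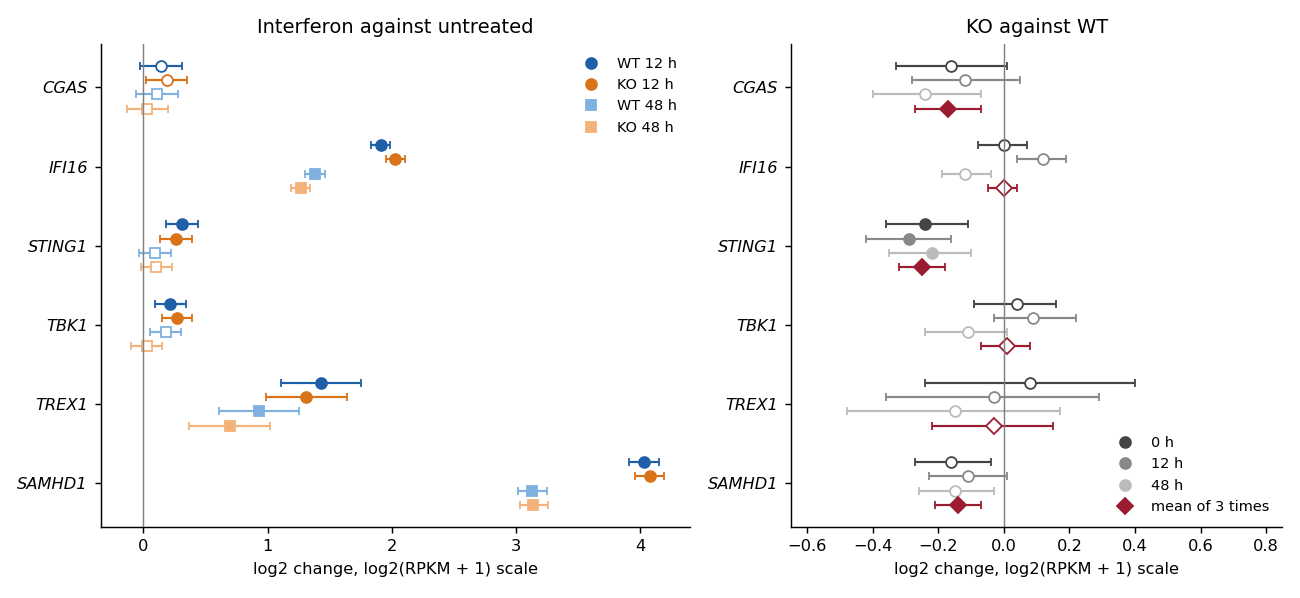
Log2 change of each gene (x axis, on the log2(RPKM + 1) scale, with 95% intervals from limma). The left panel gives interferon against untreated at 12 h (circles) and 48 h (squares) in WT (blue) and KO (orange), the right panel KO against WT at each time (grey circles) and averaged over the times (red diamonds); filled symbols passed the threshold. SAMHD1 lies near 4 and 3 at the 2 times, and STING1 lies left of 0 at every time in the right panel.

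KO cells had less STING1 RNA than WT cells at each time, and no other member was called between the genotypes at any single time. STING1 in KO was 84.5% of the WT mean at 0 h, 81.4% at 12 h and 85.3% at 48 h, and the KO and WT libraries did not overlap at any of the 3 times. The log2 differences were -0.24 (SE 0.0595, limma adjusted p 0.0293), -0.29 (adjusted p 0.0103) and -0.22 (adjusted p 0.0454). Between genotypes, 4.89% of all genes were called at 0 h, 3.62% at 12 h and 4.19% at 48 h, and 2.07%, 2.02% and 2.16% were lower in KO. At 0 h the share of higher among the calls was 57.7%, and 47.2% after median-of-ratios scaling. Each single-time call sat close to the threshold. At 0 h it was lost without any 1 of the WT libraries or of the first 2 KO libraries (adjusted p 0.0653 to 0.132). At 12 h it was lost without the third WT library (0.0596) or the first KO library (0.0598), and at 48 h without any 1 of the 6 libraries (0.0504 to 0.174), all as adjusted p. A fit on only the 6 libraries of a time gave adjusted p of 0.104, 0.061 and 0.0972.

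Because the STING1 difference was of like size at the 3 times, the mean of the 3 differences was tested in the same fit; that contrast was added after the separate results were seen. STING1 was lower in KO by 0.25 log2 units (SE 0.0344, limma adjusted p 8.94e-05), CGAS by 0.17 (SE 0.0453, adjusted p 0.0173) and SAMHD1 by 0.14 (SE 0.0318, adjusted p 0.00723). These were 3 of 6 members called, all lower, where 15.6% of all genes were called and 6.82% were lower. All 3 calls passed the threshold in each of 25 alternative fits, with adjusted p of at most 0.000325 for STING1, 0.0383 for CGAS and 0.0172 for SAMHD1. Those fits reuse the same libraries, so they are no independent support. The STING1 call restates the values that prompted the contrast. IFI16 (-0.00, 95% interval -0.05 to 0.04), TREX1 (-0.03, -0.22 to 0.15) and TBK1 (0.01, -0.07 to 0.08) were not called. CGAS in KO was 88.1%, 91.2% and 82.9% of the WT mean at the 3 times, with libraries that did not overlap at 48 h. SAMHD1 was 87.5%, 92.4% and 90.1%, without overlap at 0 and 48 h. For comparison, 8.85%, 9.77% and 9.29% of all genes had every KO library below every WT library at 0, 12 and 48 h.

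**Figure D3:**
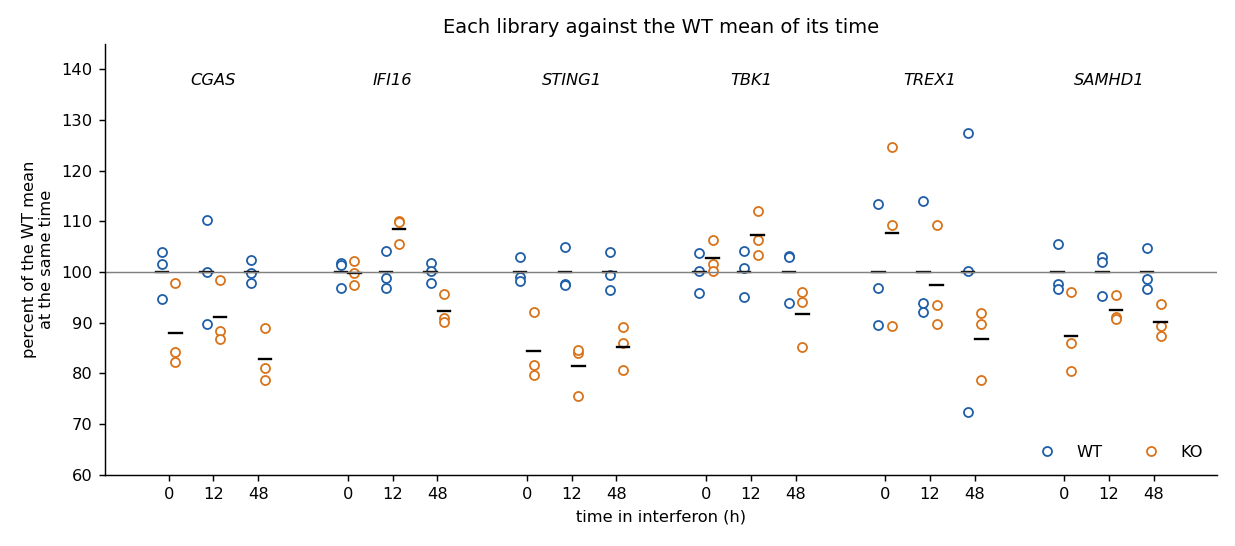
Each library as a percent of the WT mean at its time (y axis, which does not start at 0) for the 6 genes at 0, 12 and 48 h (x axis). Circles are libraries, WT in blue and KO in orange, and bars are means of 3. The KO circles of STING1 lie below all WT circles at each time, and the KO circles of IFI16 lie above them at 12 h and below them at 48 h.

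The response to interferon itself was compared between genotypes by an interaction term. None of the 6 genes was called at 12 h or at 48 h, where 0.0753% and 0.0828% of all genes were called. At an unadjusted p under 0.05 there were 764 and 826 of the 13280 genes, with IFI16 the 1 member in each. Its rise was larger in KO by 0.12 log2 units at 12 h (p 0.0326, limma adjusted p 0.818) and smaller by 0.11 at 48 h (-0.11, p 0.0419, adjusted p 0.783). KO libraries of IFI16 were all above WT at 12 h, as were those of 11.2% of all genes (108.5% of the WT mean, adjusted p 0.0942), and all below at 48 h (92.2%, adjusted p 0.0931). The 12 h difference passed the threshold without the second WT library (0.15, adjusted p 0.048). The change from 12 to 48 h, a contrast added after these values were seen, was more negative in KO by 0.23 log2 units for IFI16 (-0.23, SE 0.0512, unadjusted p 0.00034, limma adjusted p 0.387) and by 0.21 for TBK1 (-0.21, unadjusted p 0.0234, adjusted p 0.663). No gene of 13280 was called in that contrast, with 904 at an unadjusted p under 0.05.

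IFI16, SAMHD1 and TREX1 followed each other over the 18 libraries: Pearson's r of log2(RPKM + 1) was 0.99 for IFI16 and SAMHD1, 0.947 for IFI16 and TREX1, and 0.939 for SAMHD1 and TREX1. The genes share libraries and the 2 interferon steps, so these values describe the design as much as the genes. CGAS and STING1 had r of 0.685. By the same measure the genes most like IFI16 were PARP14 and APOL6 (both 0.998), and those most like SAMHD1 were TRIM22 and LAP3 (both 0.999). TREX1 was closest to SLC15A3 (0.963) and SP140L (0.961). STING1 had a different set, PGF (0.965) and LMNA (0.942), TBK1 had AMD1 (0.926) and DNTTIP2 (0.914), and CGAS had TLR2 (0.851) and ADAMTS1 (0.844), the lowest values of the 6.

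Around the 6 genes, 73 further genes of the pathway were listed by role; 61 had a row and 59 were tested. The WT cells had 16 of them higher and 14 lower at 12 h (median change 0.028 log2 units), and the KO cells 18 higher and 17 lower (median 0.001). By 48 h the WT cells had 5 higher and 2 lower, the KO cells 4 higher and 2 lower, where 12.8% and 13.3% of all genes were called. The 30 of 59 called at 12 h in WT and 35 of 59 in KO stand beside 44.9% and 48.8% of all genes.

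Of 11 tested DNA sensors and DNA-binding partners, 3 rose and 3 fell at 12 h in the WT cells, while KO cells had 5 higher and 4 lower. Over the whole tested set, 15.1% rose and 29.8% fell by that time in WT cells, with 16.0% and 32.8% for KO cells. AIM2, which forms an inflammasome on cytosolic DNA, went from 0.12, 0 and 0.32 RPKM in untreated WT to 1.00, 1.00 and 1.42 RPKM at 12 h. This was 0.90 log2 units (limma adjusted p 0.000185), at a low level in a gene that overlaps IFI16. AIM2 reached the filter of 1 RPKM only in 12 h libraries, so the filter favoured this call, which is counted among the 3 that rose. The helicase DHX9 rose by 0.36 in WT and 0.31 in KO, and MRE11, a DNA break nuclease that also binds cytosolic DNA, fell by 0.35 and 0.40. ZBP1 was under the filter on low values, and TLR9, MNDA and PYHIN1 had no row in the table. By 48 h this group had 1 gene called lower in each genotype and none higher, where 6.3% of all genes were lower in WT and 7.42% in KO.

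Of 15 tested regulators of cGAS and STING, the WT cells had 5 higher and 5 lower at 12 h, and the KO cells 5 higher and 6 lower. These stand beside 15.1% higher and 29.8% lower of all genes in WT, and 16.0% and 32.8% in KO. TRIM56, a ubiquitin ligase that acts on cGAS and STING, was 9.38, 6.54 and 7.70 RPKM in untreated WT and 16.9, 14.8 and 15.1 RPKM at 12 h (0.92 log2 units, limma adjusted p 9.69e-07), and it rose by 0.81 in KO. It was also above untreated at 48 h, by 0.71 in WT and 0.53 in KO. RNF5, a ligase that marks STING for degradation, fell by 0.62 in WT and 0.78 in KO at 12 h. INSIG1, an endoplasmic reticulum protein of sterol control that also aids STING, fell by 0.57 and 0.87.

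Of 12 tested TBK1 partners and downstream factors, WT cells at 12 h had 3 higher and 1 lower, KO cells 4 higher and 1 lower. The shares over all genes were 15.1% higher and 29.8% lower in WT, and 16.0% and 32.8% in KO. The TBK1-binding receptor OPTN went from 13.9, 14.4 and 15.4 RPKM to 26.1, 28.2 and 27.2 RPKM in WT (0.86 log2 units, limma adjusted p 3.58e-08). The adaptor AZI2 rose by 0.39 and the adaptor TANK fell by 0.29 in WT, with 0.45 and -0.37 in KO. The WT call of TANK was lost with median-of-ratios scaling (-0.20, adjusted p 0.0557). IRF3, the factor that TBK1 phosphorylates, was between 33.6 and 45.9 RPKM in all 18 libraries and was not called at 12 h (0.00 in WT, adjusted p 0.991, and -0.02 in KO, adjusted p 0.898). IKBKE had no row in the table.

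Of 10 tested nucleases other than TREX1, WT cells at 12 h had 2 higher and 1 lower, KO cells 2 higher and 2 lower. The replication and repair nucleases EXO1 and FEN1 rose (EXO1 by 0.41 in WT and 0.33 in KO, FEN1 by 0.34 and 0.47), and the lysosomal DNASE2 fell by 0.25 and 0.48. The KO call of EXO1 was lost without the first (0.28, adjusted p 0.0683) or the third (0.23, adjusted p 0.0931) untreated library. Of 10 genes of dNTP supply and the kinases that phosphorylate SAMHD1, the WT cells had 2 higher and 4 lower, and the KO cells 1 higher and 4 lower. Beside both lists, 15.1% of all genes were higher and 29.8% lower in WT, and 16.0% and 32.8% in KO. The ribonucleotide reductase subunit RRM2 rose by 0.27 in WT and 0.26 in KO, its p53-induced relative RRM2B fell by 0.54 and 0.71, and the nucleotide pyrophosphatase DCTPP1 rose by 0.24 in WT, with 0.14 in KO (limma adjusted p 0.0663). None of these named genes was called at 48 h. Of 6 output genes CXCL10, a chemokine gene that both interferon and IRF3 activate, was the 1 tested. It was at 0.28, 0.19 and 0.20 RPKM in untreated WT, 139, 151 and 132 RPKM at 12 h and 1.79, 3.05 and 2.01 RPKM at 48 h. Untreated KO libraries had at most 0.08 RPKM. CXCL10 thus reached the filter of 1 RPKM only in interferon-treated libraries, so the filter favoured its calls. Those calls are counted among the listed pathway genes higher at 12 and 48 h. IFNB1 and IFNL1 to IFNL3 had no row in the table, and their levels are unknown.

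**Figure D4:**
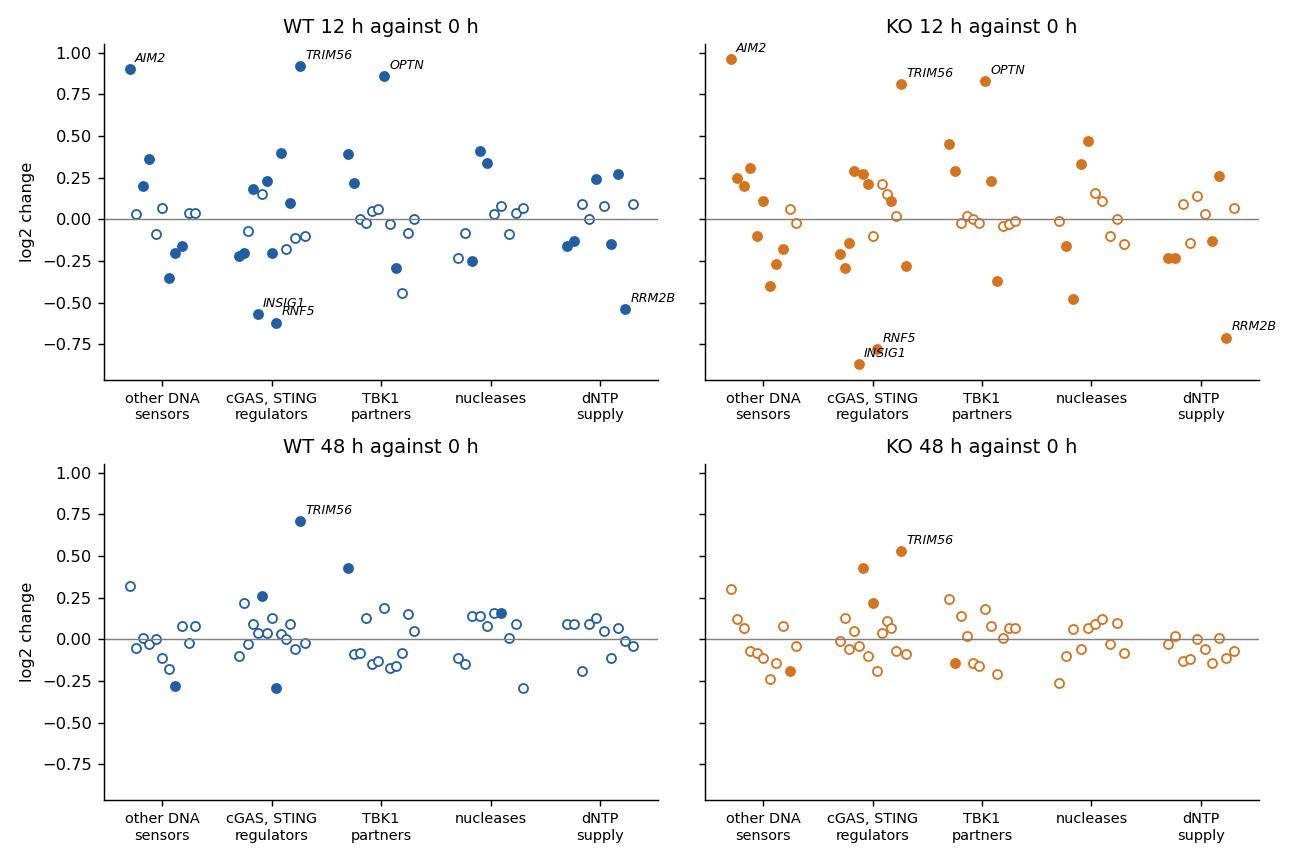
Log2 change against untreated (y axis, log2(RPKM + 1) scale) of the tested genes of 5 role lists (x axis), at 12 h in the upper and 48 h in the lower panels, WT in blue and KO in orange. Each circle is a gene, filled where called, and called genes past 0.5 in size are named; CXCL10 is not drawn. TRIM56 and OPTN are among the highest at 12 h and INSIG1, RNF5 and RRM2B among the lowest.

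Between genotypes, 3 of the 59 genes were called at 0 h, all higher in KO, against 4.89% of all genes: INSIG1 (0.40 log2 units, limma adjusted p 0.03), the dNTP salvage kinase DCK (0.22, adjusted p 0.0457) and the cyclin CCNA2 (0.14, adjusted p 0.0489). INSIG1 was 5.49, 6.65 and 5.66 RPKM in untreated WT and 7.46, 7.39 and 9.81 RPKM in untreated KO. All 3 calls were lost without the third untreated WT library or the third untreated KO library, where none of the 59 genes was called. CCNA2 lost its call in each of 13 alternative fits, DCK in 9 and INSIG1 in 4. None of the 59 was called at 12 h, or at 48 h. At an unadjusted p under 0.05 there were 11 at 12 h, beside 2256 of all 13280 genes, and 8 at 48 h, beside 2173. None was called in an interaction with limma; 2 at 12 h and 3 at 48 h had an unadjusted p under 0.05, as had 764 and 826 of the 13280 genes. In the mean over the 3 times, the contrast added later, 9 of the 59 were called, 6 higher and 3 lower in KO, where 15.6% of all genes were called.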

How the data were processed

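The authors deposited 1 table of RPKM values for 16472 Ensembl genes in 18 libraries; per the submitters' processing notes, cutadapt, STAR 2.6.1, RSEM 1.3.0, limma 3.50.3 and build hg19 were used. The annotation and the treatment of mouse reads are not given in the sources used here. Symbols were matched for 15666 genes. Here, a gene was tested if 3 or more libraries reached an RPKM of 1, on log2(RPKM + 1), a scale that understates changes of low genes, with limma 3.58.1 under R 4.3.3: a cell-means model over all 18 libraries with a variance trend, and Benjamini-Hochberg adjustment per comparison. The fit was checked on simulated data with independent normal noise. Of added changes of 0.5 log2 units, it called 73% for WT at 12 h against 0 h. It called 74% for KO against WT at 0 h and 55% for the interaction at 12 h. Smaller changes were not simulated. Besides the members, the text names from each role list the 3 genes with the largest called change at 12 h in WT, every listed gene called between genotypes at 1 time, IRF3, and the 2 genes most correlated with each member. Alternatives changed the pseudocount, filter, scaling, trend, block and libraries. Members, lists and motifs were chosen with earlier results of these data known. RefSeq coordinates are GRCh38.p14, and none were converted.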

Additional observations from a re-analysis of the deposited data

How the results depend on the processing

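Each result was recomputed with a pseudocount of 0.1, with no filter or a mean RPKM of at least 5, with median-of-ratios scaling, without a variance trend, with a replicate block, on the libraries of the comparison alone, and without each library in turn. Of the members' recomputed changes, 1116 kept direction and call, 28 lost a call, 6 gained one and 44 changed sign. The calls of IFI16, TREX1 and SAMHD1 against untreated held in all 13 alternatives per comparison. Where an exception follows, the cause was not tested.

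Members called in KO against WT fell from 1 to 0 at 0, 12 and 48 h in the fit on those libraries alone, and to 0 at 48 h with no filter and without a trend; leaving out a library gave 0 to 1 at 0 h, 0 to 2 at 12 h and 0 at 48 h. Pathway genes called in KO against WT at 0 h numbered 1 with no filter, with scaling and with the replicate block, and 0 in the fit alone (0 to 1 without a library). At 12 h they numbered 1 with a pseudocount of 0.1 and in the fit alone (0 to 1 without a library), and at 48 h 0 to 1. In the mean over times they numbered 9, and 5 to 11 without a library, in KO at 48 h 3 in the fit alone (3 to 8), and in WT at 48 h 4 to 7. All genes called, in the fit alone, numbered 1038 for KO at 48 h (1160 to 1594 without a library), 330 (381 to 578), 233 (304 to 446) and 287 (375 to 424) for KO against WT at 0, 12 and 48 h, 6 (6 to 9) and 3 (7 to 11) for the interactions at 12 and 48 h, and 1 for that from 12 to 48 h, which was also 1 without a trend.

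The changes of sign were in values that were not called. With scaling, TBK1 in the mean KO against WT difference became -0.01. Without 1 library the ranges were, for CGAS, -0.10 to 0.04 (WT, 48 h against 12 h), -0.01 to 0.10 (KO at 48 h) and -0.02 to 0.11 (interaction at 12 h). For TBK1 they were -0.07 to 0.00 (WT, 48 h against 12 h), -0.01 to 0.07 (KO at 48 h) and -0.01 to 0.02 (KO against WT, mean over times). IFI16 ranged from -0.03 to 0.01 in KO against WT at 0 h and -0.01 to 0.01 in the mean. TREX1 ranged from -0.01 to 0.19, -0.11 to 0.06 and -0.34 to 0.02 at 0, 12 and 48 h, -0.10 to 0.02 in the mean and -0.31 to 0.05 in the interaction from 12 to 48 h. In the interactions at 12 and 48 h, STING1 ranged from -0.09 to 0.01 and -0.03 to 0.08, and SAMHD1 from -0.00 to 0.10 and -0.04 to 0.06.

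The replicate numbers showed no clear pairing of the samples. Over 45 pairs of libraries with the same number the correlation of deviations was -0.1 to 0.16 (median -0.01), and 2 pairs exceeded 0.1. Over 90 pairs with different numbers it was -0.11 to 0.15 (median 0.01), and 2 exceeded 0.1. Of 18 libraries, 2 correlated best with their own number. The labels name no batch, and shared handling of libraries with the same number was not tested. With the replicate block no call of a member changed, and pathway genes called in KO against WT at 0 h numbered 1 in place of 3. Total depth is unknown, so low genes carry no counting interval.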
